A study of Mus musculus with 18 samples.

Results

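Loss and gain of miR-132 were set against each other in the mouse hippocampus, gene by gene, to find transcripts whose level moved one way when the microRNA was removed and the other way when it was added. The genes were those listed in both count tables for these animals, joined by gene symbol, which gave 9991 of the 11738 gene symbols found in any table of the series. For each gene the effect of the loss was taken as the log2 fold change between miR-132/212 cKO libraries and their controls, and the effect of the gain as that between tTA::miR132 libraries and their controls. The quantity tested was the effect of the loss minus the effect of the gain, called the difference between the effects, so that a positive value means a transcript relatively higher after loss than after gain.

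All animals were C57BL/6 mice, and ages are not given in the labels. In the cKO animals (CaMKII-Cre::miR-132/212f/f) the genes of miR-132 and miR-212 carry loxP sites and are removed by a Cre recombinase driven from a CaMKII promoter, which is active in excitatory neurons of the forebrain. In the tTA::miR132 animals a tetracycline transactivator drives a miR-132 transgene from a promoter the labels do not name. Each strain had its own nontransgenic controls, which carry neither driver, so an effect of the driver and an effect of the microRNA cannot be told apart. Complementary DNA of 6 animals per group was pooled into 3 replicates, per the series design text, and the 2 tables hold 2 libraries for each of the 4 groups; the third library of each group is not analysed here. Whole hippocampus was sequenced, so fewer cells of a type and less RNA per cell cannot be told apart.

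MicroRNAs are short RNAs that guide Argonaute proteins to messages carrying a match to their seed, the bases near the 5′ end, and thereby lower the stability or translation of those messages. miR-132 and miR-212 come from one locus that is switched on in neurons by CREB after synaptic activity and by BDNF, and they are known for effects on dendrite growth, spine density and memory. A message repressed directly would be higher after loss and lower after gain, while downstream genes may move either way.

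The 3p strands of both microRNAs share their seed, and matches to that seed are the ones counted here; the 5p strands have other seeds and were not searched. miR-132-3p lies at chr11:74987225-74987246 and miR-212-3p at chr11:74986945-74986966 on the plus strand of mm9. The first 9 bases are identical, as are 17 of the 22 bases compared without gaps. The sequences below are from RefSeq (GRCm38.p6), with the seed, bases 2 to 8, in capitals.
miR-132-3p: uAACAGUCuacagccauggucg
miR-212-3p: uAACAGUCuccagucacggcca

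The reverse complement of the seed, GACTGTT, was searched on the sense strand of the longest annotated 3′ UTR of each gene (GENCODE M1, mm9), and GACTGTTA, which contains it, was counted as the stronger form. At least 1 match was held by 1327 of 9744 genes with such a UTR (13.6%), and at least 1 of the 8-base form by 280 (2.87%). The windows below, of 29 bases on the sense strand of mm9, are those of genes described further on that were higher in cKO libraries and lower in tTA::miR132 libraries, with the match in capitals. They lie at chr19:45055684-45055712 (plus strand, Fam178a), chr10:110934198-110934226 (plus, Nap1l1), chr4:104707293-104707321 (minus, Prkaa2), chr3:30800275-30800303 (minus, Phc3), chr2:65298452-65298480 (minus, Scn3a), chr5:15876746-15876774 (plus, Cacna2d1) and chr6:143781674-143781702 (minus, Sox5, the first of 2 matches).
Fam178a: agctataaaatagtGACTGTTtttaaaat
Nap1l1: ccaagaatgggtggGACTGTTgattcaac
Prkaa2: caagaagcaaatgaGACTGTTAgaccagg
Phc3: tgggccatctccttGACTGTTgacaacag
Scn3a: gtccatgccaaactGACTGTTtcaacaaa
Cacna2d1: gaggtttgggagttGACTGTTgcacggtt
Sox5: ctctctcatacactGACTGTTAttttaac

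Matches were also found in genes that moved the opposite way, lower in cKO libraries and higher in tTA::miR132 libraries. The windows of Cggbp1 (chr16:64856391-64856419, plus strand), Setd7 (chr3:51324457-51324485, minus) and Clock (chr5:76641192-76641220, minus) are shown for comparison. Wscd1 and Ssh2, which are described further on and moved in that same direction, also hold a match, of 7 and 8 bases. A match is a description of the letters and not evidence of binding.
Cggbp1: tctctaggagaaatGACTGTTcaaattac
Setd7: ggctcctagggccaGACTGTTAtttatag
Clock: ctttttttccatgtGACTGTTttgcatat

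Totals over the joined genes were 9288721 and 9619481 counts in cKO libraries 1 and 2, against 9356264 and 8125186 in cKO controls, and 14605700 and 8689788 in tTA::miR132 libraries, against 9798773 and 8196627 in miR-132 controls. A pair of libraries stood apart. cKO library 1 listed 894 genes at 0 (8.95%), against 26 in cKO library 2, and miR-132 control library 2 listed 266 (2.66%), against 7 to 109 in the other libraries of that table. Across genes, cKO library 1 correlated with the other libraries at 0.65 to 0.73 and miR-132 control library 2 at 0.65 to 0.82, while all other pairs lay at 0.87 to 0.93 (Pearson, log2 CPM; genes are not independent replicates). Both enter the difference between the effects with the same sign, so results are also given without both of them. Markers of granule cells (Calb1), CA fields (Wfs1, Fibcd1) and excitatory neurons (Slc17a7, Camk2a) were detected in each library, and the granule marker Prox1 in each but cKO library 1, where it was at 0.

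Across the transcriptome, opposite and like directions of the effects of loss and gain were about equally common. Opposite signs were found for 5032 of 9991 genes (50.4%), 2440 of them higher and 2592 lower in cKO libraries, and for 48.4% without the 2 libraries that stood apart. The Pearson correlation between the effects across genes was -0.04, and 0.03 without those libraries; these are descriptions of genes measured in the same 8 libraries. A stricter class, here called opposed, held genes for which both cKO libraries lay on one side of both their controls and both tTA::miR132 libraries on the other side of both of theirs, on TMM-scaled counts relative to library size (CPM). It held 542 genes (5.42%). Genes with such separation in the same direction in both comparisons numbered 550 (5.50%), of which 273 were higher in both and 277 lower in both.

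Of the opposed genes, 252 were higher in cKO and lower in tTA::miR132 libraries (2.52% of genes tested) and 290 were lower in cKO and higher in tTA::miR132 libraries (2.90%). The single separations behind them were common. Both cKO libraries lay above both controls for 15.3% of genes and below for 17.1%, and both tTA::miR132 libraries lay above both controls for 16.8% and below for 16.0%. Of the 290 genes lower in cKO libraries, 55 were at 0 in cKO library 1 and 24 at 0 in miR-132 control library 2 (a gene of the 252 cannot be at 0 in either, since the rule needs a value above another library's there).

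No single gene passed the test of the difference between the effects. With edgeR's quasi-likelihood test, 0 of 9991 genes (0%) had a Benjamini-Hochberg adjusted p under 0.05, and the smallest adjusted p was 1.00. At an unadjusted p under 0.05 there were 195 genes, 139 with a positive difference (1.39%) and 56 with a negative one (0.561%). These are fewer genes than that threshold would pass if no gene differed. DESeq2 called 1 gene and limma-voom none, with 560 and 343 genes at an unadjusted p under 0.05. The gene DESeq2 called, Fam71f2, named here after its values were seen, rested on 37.4 CPM in cKO library 1 and 26.6 CPM in miR-132 control library 2, and was at 0 in cKO library 2 and in both cKO controls. The median standard error of the difference was 0.85 on the log2 scale, so changes of small size were not detectable with these libraries, 2 per group. The genes below are thus described by their values and direction, and none of them reached significance.

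**Figure D1:**
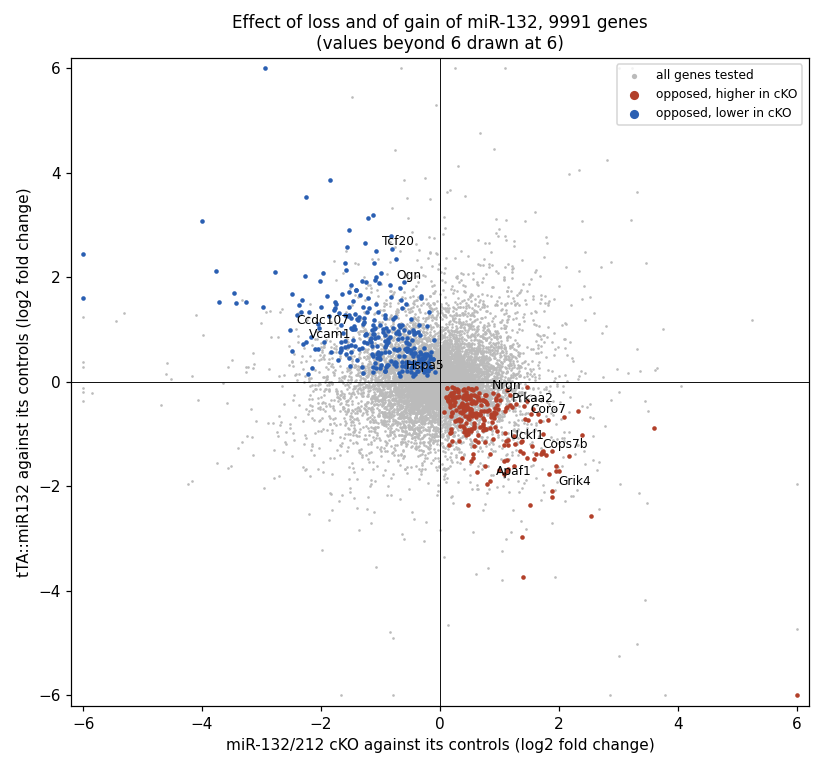
Log2 fold change of cKO libraries against their controls (x axis) and of tTA::miR132 libraries against theirs (y axis) for 9991 genes (grey points). The 252 opposed genes higher in cKO libraries (red) and the 290 lower in them (blue) fill opposite quadrants by the rule that chose them; the grey cloud shows no slope between the effects (r = -0.04).

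The opposed genes higher after loss with the smallest unadjusted p are described one by one. Coro7 (NM_030205, chr16:4626883-4679720, minus strand) encodes a coronin of the Golgi that acts in protein sorting. It had 116 and 86.7 CPM in cKO libraries, against 38.1 and 37.4 CPM in cKO controls, and 52.6 and 59.3 CPM in tTA::miR132 libraries, against 78.4 and 105 CPM in miR-132 controls. Its difference between the effects was 2.14 (SE 0.55, unadjusted p 0.0031), and 1.69 without the 2 libraries that stood apart. Neither library of either pair overlapped with its controls, and the separation was wider after loss than after gain.

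Fam178a (NM_001081225, chr19:45005608-45058277, plus strand), a gene of the DNA repair machinery around the SMC5/6 complex, carries 1 seed match. It had 239 and 125 CPM in cKO libraries, against 96.2 and 91.2 CPM in controls, and 74.3 and 89.1 CPM in tTA::miR132 libraries, against 148 and 166 CPM in controls. The difference was 1.90 (SE 0.49), and 1.27 without the 2 libraries; cKO library 1 was the higher of the cKO pair. Nap1l1 (NM_001146707, chr10:110917672-110935200, plus strand), a histone chaperone with 1 seed match, had 388 and 273 CPM in cKO libraries, against 251 and 254 CPM in controls, and 166 and 174 CPM in tTA::miR132 libraries, against 286 and 329 CPM in controls. Its difference was 1.24 (SE 0.33), and here the change after gain (-0.85) was larger than that after loss (0.39).

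Apaf1 (NM_001042558, chr10:90452055-90545488, minus strand), the scaffold of the apoptosome that activates caspase-9, had 43.3 and 69.8 CPM in cKO libraries, against 26.8 and 36.2 CPM in controls, and 23.0 and 17.2 CPM in tTA::miR132 libraries, against 47.3 and 103 CPM in controls. Its difference of 2.74 (SE 0.82) was 2.38 without the 2 libraries. It was 3.04 without cKO library 1 alone and 2.07 without miR-132 control library 2 alone. Prkaa2 (NM_178143, chr4:104702254-104782503, minus strand), a catalytic subunit of the energy sensor AMPK, carries an 8-base seed match. It had 160 and 110 CPM in cKO libraries, against 63.0 and 62.0 CPM in controls, and 48.8 and 73.9 CPM in tTA::miR132 libraries, against 84.2 and 89.9 CPM in controls. Its difference was 1.62 (SE 0.53), with the larger part from the loss.

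Further opposed genes of this direction follow. Map1lc3a, which encodes an LC3 protein of the autophagosome membrane, had 206 and 180 CPM in cKO libraries, against 149 and 135 CPM in controls, and 82.5 and 122 CPM in tTA::miR132 libraries, against 174 and 176 CPM in controls (difference 1.22, SE 0.40, and 1.12 without the 2 libraries). Crls1, the cardiolipin synthase of mitochondria, had a difference of 1.54 (SE 0.51), and 0.83 without the 2 libraries. Pacsin1, a membrane-bending protein of synaptic vesicle endocytosis, had 612 and 411 CPM in cKO libraries, against 335 and 345 CPM in controls, and 375 and 359 CPM in tTA::miR132 libraries, against 455 and 512 CPM in controls. Sncb, which encodes β-synuclein of the presynapse, had 412 and 337 CPM in cKO libraries, against 213 and 293 CPM in controls, and 259 and 264 CPM in tTA::miR132 libraries, against 349 and 335 CPM in controls. Their differences were 0.98 (SE 0.31) for Pacsin1 and 0.95 (SE 0.32) for Sncb, and 0.58 and 0.83 without the 2 libraries.

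The remaining members of the 12 were Uckl1, a uridine-cytidine kinase relative, Cops7b, a subunit of the COP9 signalosome that regulates cullin ubiquitin ligases, and Phc3, a subunit of the Polycomb complex PRC1. Uckl1 had 81.6 and 66.8 CPM in cKO libraries, against 37.2 and 33.1 CPM in controls, and 23.6 and 30.5 CPM in tTA::miR132 libraries, against 76.2 and 48.8 CPM in controls. Cops7b had 70.8 and 34.5 CPM in cKO libraries, against 17.2 and 17.2 CPM in controls, and 10.6 and 18.6 CPM in tTA::miR132 libraries, against 44.6 and 31.4 CPM in controls. Their differences, 2.29 (SE 0.70) and 2.997 (SE 0.98), were 2.42 and 2.62 without the 2 libraries. Phc3, with 1 seed match, had a difference of 1.67 (SE 0.56), and 1.05 without them. The 12 genes were picked by p, and 4 of them hold a seed match, as do 13.6% of genes with an annotated 3′ UTR.

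**Figure D2:**
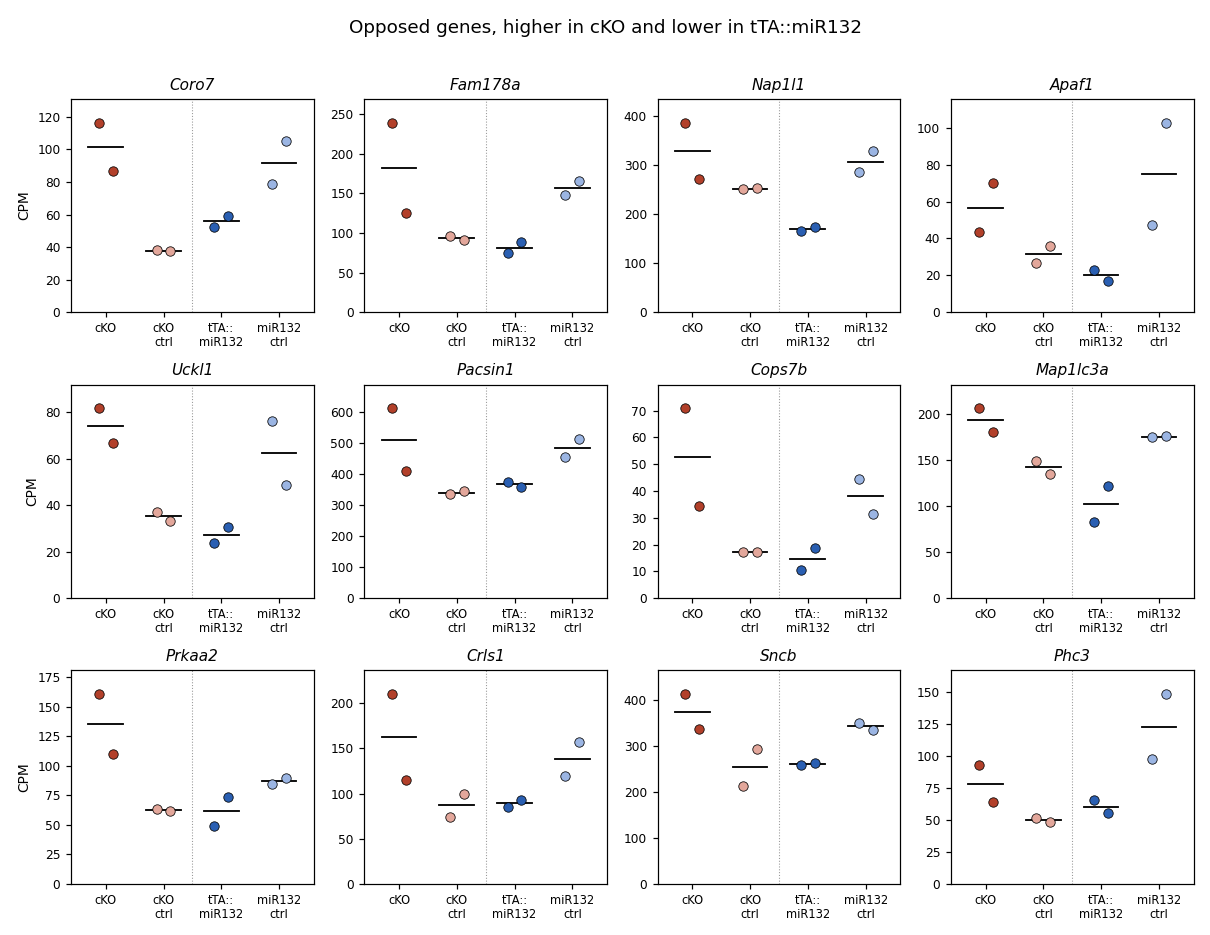
CPM of each library (points) and group mean (line) for the 12 opposed genes higher in cKO libraries with the smallest unadjusted p, with cKO, cKO controls, tTA::miR132 and miR-132 controls from left to right and axes from 0. In each panel both cKO points lie above both cKO controls and both tTA::miR132 points below both miR-132 controls, as the rule requires; for Fam178a, Pacsin1 and Crls1 one cKO point, library 1, lies far above the other.

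In the other direction, 12 opposed genes lower after loss were named by the same rule. Hspa5 (NM_022310, chr2:34627609-34632049, plus strand), which encodes BiP, the chaperone that binds unfolded proteins in the endoplasmic reticulum, was the most abundant of the 12. It had 285 and 276 CPM in cKO libraries, against 419 and 474 CPM in controls, and 515 and 549 CPM in tTA::miR132 libraries, against 494 and 482 CPM in controls. The difference was -0.79 (SE 0.25), and -0.80 without the 2 libraries. Most of it came from the loss (-0.67), and the gain contributed 0.12.

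Tcf20 (NM_001114140, chr15:82639054-82742564, minus strand), a nuclear co-regulator of transcription, had 12.3 and 24.3 CPM in cKO libraries, against 29.1 and 48.4 CPM in controls, and 65.1 and 48.9 CPM in tTA::miR132 libraries, against 14.5 and 5.60 CPM in controls. Its difference was -3.58 (SE 1.06), and -2.64 without the 2 libraries, with the larger part from the gain (2.50). Picalm (NM_146194, chr7:97278741-97357442, plus strand), a clathrin assembly protein of endocytosis, had 92.3 and 107 CPM in cKO libraries, against 132.3 and 138 CPM in controls, and 151 and 161 CPM in tTA::miR132 libraries, against 99.2 and 98.9 CPM in controls. The replicates of each group lay close together, and its difference of -1.10 (SE 0.39) was -0.995 without the 2 libraries.

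Vcam1, an adhesion molecule of vessel walls and of neural stem cells, had 4.60 and 15.3 CPM in cKO libraries, against 49.5 and 49.2 CPM in controls, and 37.1 and 34.2 CPM in tTA::miR132 libraries, against 25.3 and 17.7 CPM in controls. Cartpt, which encodes the neuropeptide precursor CART, had 0 counts in both cKO libraries, against 160 counts over both controls. Taking 3 counts as the limit for 0 over the group, it was at least 56.2-fold lower, by counting error alone, and the controls themselves were far apart, at 2.41 and 16.6 CPM. In tTA::miR132 libraries Cartpt had 15.2 and 15.2 CPM, against 2.03 and 3.56 CPM in controls. For both genes the groups did not overlap in either comparison; cKO library 1, which has many genes at 0, was the lower one for Vcam1.

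Among the others, Cggbp1, a protein that binds CGG repeats in DNA and that holds a seed match, had 89.6 and 79.1 CPM in cKO libraries, against 153 and 129 CPM in controls, and 122 and 134 CPM in tTA::miR132 libraries, against 102 and 98.1 CPM in controls (difference -1.10, SE 0.41, and -1.16 without the 2 libraries). Herc4, a ubiquitin ligase, had a difference of -3.01 (SE 1.05), and Cdc14a, a phosphatase, one of -7.88 (SE 2.90) with 0 and 0.407 CPM in cKO libraries, against 21.7 and 11.99 CPM in controls. Znhit3, a zinc finger protein, had -2.04 (SE 0.70). Wscd1, Ccdc107 and 1110051M20Rik had differences of -1.10, -3.52 and -1.30. Of these 12 genes Cggbp1 and Wscd1 hold a seed match. Without the 2 libraries all 12 genes kept a negative difference, that of 1110051M20Rik being -0.92.

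**Figure D3:**
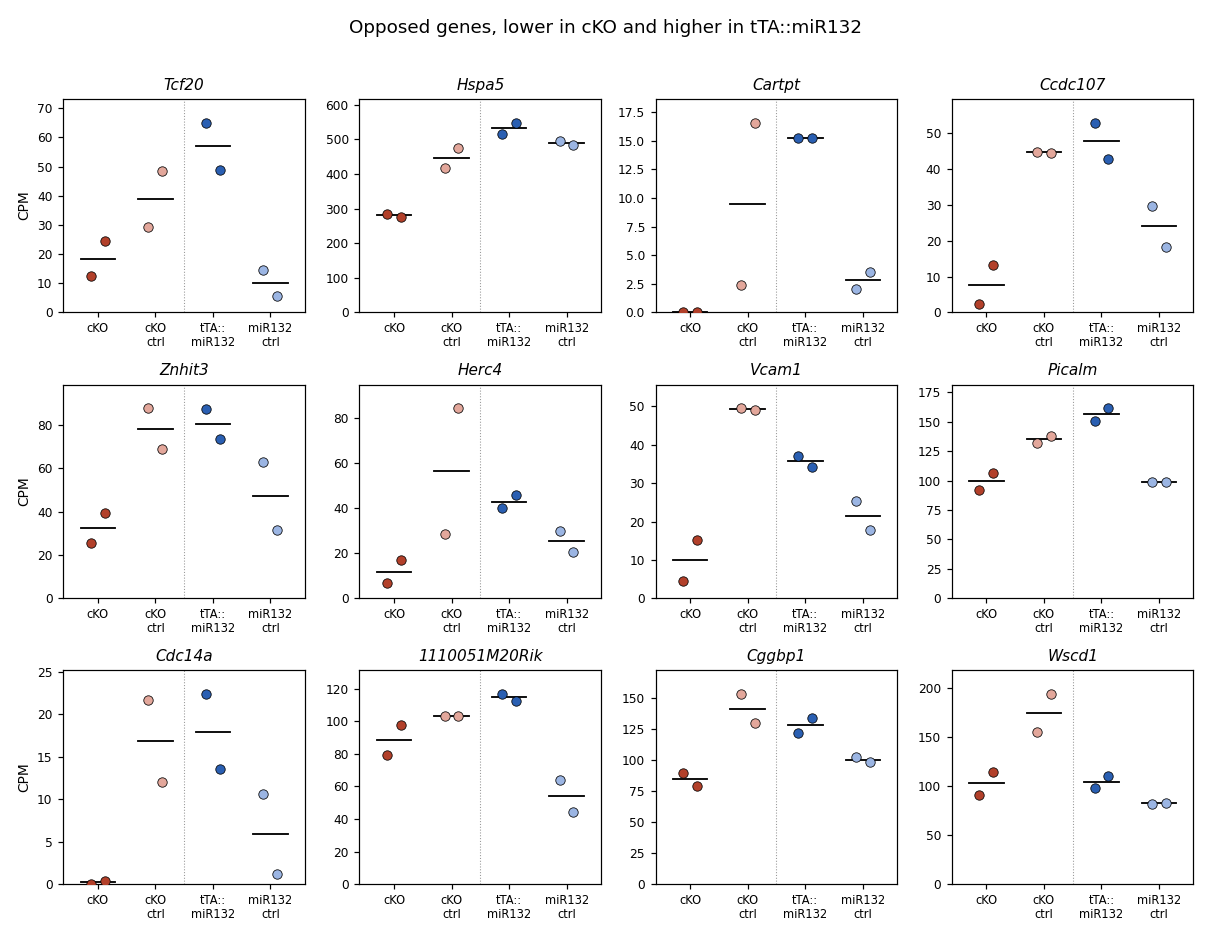
CPM of each library (points) and group mean (line) for the 12 opposed genes lower in cKO libraries with the smallest unadjusted p, drawn as for the genes higher in cKO libraries. For Hspa5 and Cggbp1 the cKO points stand far below their controls while tTA::miR132 points lie only slightly above theirs; for Tcf20 and Picalm the gap on the tTA::miR132 side is the wider one.

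Genes with and without a seed match had close medians. The median difference between the effects was -0.03 over the 1327 genes with a 7-base match, against -0.05 over 8417 genes with a UTR and no match and -0.05 over all genes tested. It was 0.04 over the 280 genes with an 8-base match and -0.09 over the 164 genes with at least 2 matches. Of genes with a 7-base match 2.86% were opposed and higher in cKO libraries, against 2.48% of genes without one, and of those with an 8-base match 4.29% (12 genes). The share opposed the other way was 2.19% with a match, 2.99% without and 2.86% with an 8-base match (8 genes). Of genes with at least 2 matches 2.44% were opposed and higher in cKO libraries, and 1.83% were opposed the other way. Genes with a match have longer 3′ UTRs, with a median of 2367 bases against 1196 bases, and the part of UTR length in these shares was not tested.

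Of 25 genes reported as direct targets of miR-132 or miR-212, 21 were measured. A positive difference between the effects was found for 14 of them, and for 47.5% of all genes. Their median was 0.23 (-0.05 over all genes). The median effect was 0.14 after loss and -0.17 after gain, and the replicate SD of the list's median was 0.17. Without the 2 libraries that stood apart the median difference was 0.22 with 14 positive members. The median effects were then -0.002 after loss and -0.29 after gain. Signs were opposite for 9 members, 8 of them higher after loss. Sox5, a transcription factor of neuronal fate, was the 1 opposed member, where 5.42% of all genes were opposed. Sox5 had 29.1 and 13.4 CPM in cKO libraries, against 12.4 and 12.7 CPM in controls, and 15.2 and 23.4 CPM in tTA::miR132 libraries, against 33.7 and 37.9 CPM in controls. Foxo3, often cited as a target, is not among the joined genes and is not analysed here.

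Mapt, which encodes the microtubule protein tau, had 732 and 469 CPM in cKO libraries, against 503 and 500 CPM in controls, and 449 and 501 CPM in tTA::miR132 libraries, against 596 and 736 CPM in controls. It was lower in both tTA::miR132 libraries, but the cKO libraries lay on either side of their controls, and its difference of 0.75 (SE 0.32) was 0.23 without the 2 libraries. Arhgap32, the GTPase activating protein p250GAP, had a difference of 0.31 (SE 0.57), Rasa1, a Ras GTPase activating protein, -0.10 (SE 0.44), and Sirt1, a deacetylase, -0.38 (SE 1.11). Ache, the acetylcholine-degrading enzyme, and Ep300, a histone acetyltransferase, had differences of 0.23 (SE 0.53) and -0.32 (SE 0.55) and hold no match in the UTR searched. Mef2c, an activity-dependent transcription factor with a match and not on that list, had 691 and 346 CPM in cKO libraries, against 425 and 506 CPM in controls, and 345 and 330 CPM in tTA::miR132 libraries, against 610 and 483 CPM in controls. The groups of each of these genes overlapped in at least one of the comparisons.

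Calmodulin, the calcium/calmodulin-dependent kinases and their partners, which turn calcium entry at synapses into phosphorylation, had mostly positive differences between the effects in all 8 libraries. Of 22 listed genes 22 were measured and 21 had a positive difference between the effects, with a median of 0.32; none of the 22 holds a seed match or passed the test. The median effect was 0.21 after loss and -0.17 after gain, and the replicate SD of the list's median was 0.31. Without cKO library 1 the median was 0.15, and without it and miR-132 control library 2 together it was 0.12 with 14 positive members, from median effects of -0.00 after loss and -0.05 after gain. The recombinase is itself driven from a CaMKII promoter.

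Of the 22 genes 2 were opposed, both higher in cKO libraries, as were 2.52% of all genes. Nrgn, which encodes neurogranin, a postsynaptic protein that binds calmodulin, was opposed. It had 3426 and 1522 CPM in cKO libraries, against 1396 and 1499 CPM in controls, and 1284 and 1374 CPM in tTA::miR132 libraries, against 1610 and 1569 CPM in controls. The gap in cKO libraries lay in library 1, while library 2 exceeded its controls by little, and the difference of 1.03 (SE 0.41) was 0.35 without the 2 libraries. Nrgn was the gene called by limma-voom with library quality weights (difference 0.89, adjusted p 0.047). Camk4, a nuclear kinase that activates CREB, was also opposed, with 231 and 218 CPM in cKO libraries, against 215 and 215 CPM in controls, and 151 and 178 CPM in tTA::miR132 libraries, against 221 and 271 CPM in controls, so that its difference of 0.64 (SE 0.33) came from the gain.

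Camk2a, the main kinase subunit of excitatory synapses, had 1633 and 1709 CPM in cKO libraries, against 1330 and 1437 CPM in controls, and 1409 and 1574 CPM in tTA::miR132 libraries, against 1525 and 1996 CPM in controls. The groups of the gain overlapped. Camk2n1, an inhibitor of CaMKII, had 861 and 844 CPM in tTA::miR132 libraries, against 1538 and 1764 CPM in controls, but 1995 and 1037 CPM in cKO libraries, against 1885 and 1173 CPM in controls. It was therefore lower after gain without being higher after loss, and its difference of 0.94 (SE 0.41) was 0.29 without the 2 libraries. The calmodulin genes Calm2 and Calm3 had differences of -0.05 and 0.01.

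**Figure D4:**
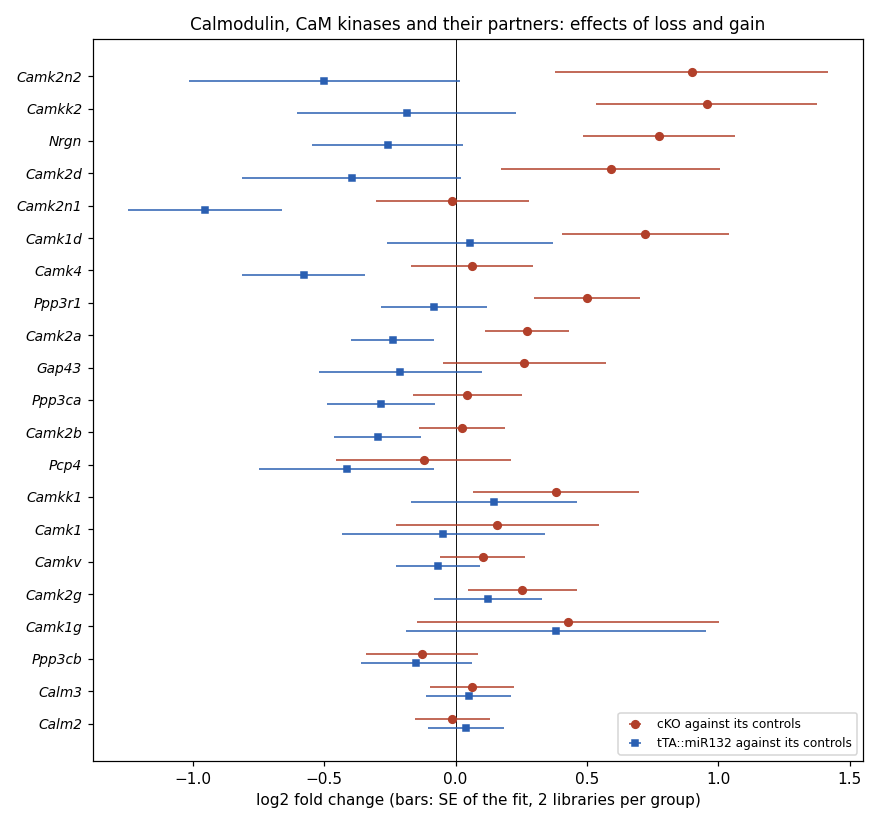
Log2 fold change with the standard error of the fit for cKO against controls (red circles) and tTA::miR132 against controls (blue squares) for 21 of the 22 genes of calmodulin, CaM kinases and partners, ordered by the difference between the effects. The red point lies right of the blue one for each gene drawn except Calm2; the gap is widest for Camk2n2 and Camkk2 and close to 0 for Calm2 and Calm3.

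Other synaptic lists also had more positive than negative differences. Of 42 measured genes of synaptic vesicles and release, 33 had a positive difference, with a median of 0.27 (0.12 after loss, -0.11 after gain), and of 49 genes of glutamate receptors and postsynaptic scaffolds 33 did, with a median of 0.24. These medians were 0.15 (31 positive) and 0.13 (31 positive) without the 2 libraries, where the vesicle list had median effects of 0.02 after loss and -0.15 after gain. Pacsin1 and Sncb, described above as opposed, are not on the vesicle list. No gene of that list was opposed and 1 of the postsynaptic list was, where 5.42% of all genes were. That gene was Grik4, a kainate receptor subunit of CA3 neurons. Grik4 had 73.9 and 19.6 CPM in cKO libraries, against 8.18 and 16.9 CPM in controls. In tTA::miR132 libraries it had 6.77 and 9.13 CPM, against 10.4 and 57.2 CPM in controls. Its highest values are those of cKO library 1 and miR-132 control library 2, and its difference of 3.98 (SE 1.47) was 1.02 without them. Dlg4, which encodes the scaffold PSD-95, had 294 and 234 CPM in cKO libraries, against 126 and 184 CPM in controls, but overlapped after gain, with 317 and 225 CPM, against 352 and 224 CPM in controls.

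Among the 30 lists, potassium and sodium channels held the most opposed members by count, which depends on list size. The smaller list of clock genes, described below, held a larger share. Of 48 measured potassium and sodium channel genes 6 were opposed, all higher in cKO libraries and lower in tTA::miR132 libraries (2.52% over all genes in that direction), while the median difference of the list was 0.11 with 27 positive members, and its sign changed under 5 of 18 alternatives, among them limma-voom. Scn3a, a pore subunit of voltage-gated sodium channels with a seed match, had 165 and 108 CPM in cKO libraries, against 61.0 and 88.7 CPM in controls, and 59.9 and 100 CPM in tTA::miR132 libraries, against 105 and 167 CPM in controls. The difference was 1.63 (SE 0.58), and 0.93 without the 2 libraries; in each comparison the groups were apart, with both pairs spread widely.

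Further opposed channels were Kcnc1, a fast potassium channel, Hcn2, a pacemaker channel, and Kcnj4, an inward rectifier, with differences of 0.81 (SE 0.38), 1.42 (SE 1.00) and 1.496 (SE 1.15); they are named after their values were seen. Without the 2 libraries they were 0.85, 1.41 and 0.63. Among 25 calcium channel genes the median difference was 0.28 with 18 positive members (0.06 without the 2 libraries). Cacna2d1, an auxiliary subunit with a seed match, was the 1 opposed member, where 5.42% of all genes were opposed. It had 472 and 353 CPM in cKO libraries, against 269 and 306 CPM in controls. In tTA::miR132 libraries it had 330 and 311 CPM, against 366 and 395 CPM in controls.

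Genes of the spine cytoskeleton, a process miR-132 is known for, had a median difference of 0.03 over 36 members. Its sign changed under 5 of 18 alternatives. The difference was positive for 19 members, and for 47.5% of all genes. Of the members 3 were opposed, where 5.42% of all genes were. Kalrn, which encodes kalirin, an activator of Rac at spines, had 231 and 213 CPM in cKO libraries, against 162 and 168 CPM in controls, and 116 and 137 CPM in tTA::miR132 libraries, against 179 and 190 CPM in controls. Rac1, the GTPase it activates, had 611 and 495 CPM in cKO libraries, against 369 and 475 CPM in controls, and 420 and 480 CPM in tTA::miR132 libraries, against 509 and 596 CPM in controls. The differences were 0.97 (SE 0.35) and 0.69 (SE 0.29), and 0.87 and 0.41 without the 2 libraries. Ssh2, a phosphatase that activates the actin-severing protein cofilin, was opposed the other way at very low levels, with 0 and 2.85 CPM in cKO libraries, against 3.98 and 18.0 CPM in controls, and 10.4 and 6.31 CPM in tTA::miR132 libraries, against 0 counts in both controls. That last contrast was at least 52.2-fold by counting error alone, with 3 counts as the limit for 0 over the group. Ssh2 holds an 8-base seed match.

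Genes induced by neuronal activity held an opposed pair among 25 measured members, where 5.42% of all genes were opposed. Fos, a subunit of the AP-1 transcription factor, had 10.5 and 59.5 CPM in cKO libraries, against 92.1 and 76.3 CPM in controls, and 64.8 and 49.1 CPM in tTA::miR132 libraries, against 26.3 and 34.6 CPM in controls. Fosl2, another subunit, had 52.6 and 60.4 CPM in cKO libraries, against 45.3 and 44.4 CPM in controls, and 27.4 and 53.5 CPM in tTA::miR132 libraries, against 57.8 and 78.0 CPM in controls. Fos was thus lower after loss and Fosl2 higher. The median of the 25 measured members was 0.38, but -0.27 without the 2 libraries. In CREB and BDNF signalling, which lies upstream of this microRNA locus, the median over 27 members was 0.11. In each direction 1 member was opposed, where 2.52% and 2.90% of all genes were. Atf1, a CREB relative, was opposed and higher in cKO libraries (difference 1.83, SE 1.28, and 0.66 without the 2 libraries). Rps6ka5, a kinase that phosphorylates CREB and histones, was opposed and lower (difference -3.17, SE 2.53, and -1.64 without the 2 libraries). It had 0 and 23.8 CPM in cKO libraries, against 32.3 and 31.1 CPM in controls.

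Chromatin enzymes held 1 opposed gene higher in cKO libraries and 2 lower in them, against 2.52% and 2.90% of all genes. Among 42 genes of histone methylation and deacetylation the median difference was -0.22 (18 positive), and -0.21 without the 2 libraries. Suz12, a core subunit of the Polycomb complex PRC2, was opposed and higher in cKO libraries, with 167 and 88.3 CPM, against 77.5 and 73.4 CPM in controls, and 90.4 and 71.6 CPM in tTA::miR132 libraries, against 108 and 101 CPM in controls. Setd7, a lysine methyltransferase with an 8-base seed match, was opposed and lower, with 200 and 198 CPM in cKO libraries, against 210 and 245 CPM in controls, and 314 and 236 CPM in tTA::miR132 libraries, against 221 and 201 CPM in controls. Kdm3b, a histone demethylase, was also opposed and lower (difference -1.04, SE 0.66). The list thus held members opposed in either direction.

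Clock genes, the machinery of daily rhythm that miR-132 is known to affect in the suprachiasmatic nucleus, had 3 opposed members of 19, against 5.42% of all genes, and a median difference of 0.01, with the other sign under 9 of 18 alternatives. Clock, the core transcription factor, had 4.48 and 46.2 CPM in cKO libraries, against 65.8 and 52.3 CPM in controls, and 74.9 and 78.5 CPM in tTA::miR132 libraries, against 39.2 and 21.4 CPM in controls. Its difference was -2.56 (SE 1.21), and -1.32 without the 2 libraries. Tef, a clock output factor, was opposed and higher in cKO libraries (difference 0.43, SE 0.25), and Csnk1d, the kinase that marks period proteins for turnover, opposed and lower (-0.72, SE 0.58). The labels give no time of day for tissue collection.

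Chaperones and stress genes of the endoplasmic reticulum, the list that holds Hspa5, had a median difference of -0.12 over 22 members with 13 negative, and -0.15 without the 2 libraries. Hyou1, a further chaperone there, was opposed the other way, with a difference of 1.60 (SE 1.10), and 0.47 without the 2 libraries. In each direction 1 member of the list was thus opposed, where 2.52% and 2.90% of all genes were. Oxidative phosphorylation had a median of 0.05 over 69 genes, and -0.32 without the 2 libraries, and ribosomal proteins one of 0.03 over 43 genes, and -0.22 without them. Of oxidative phosphorylation genes 2 were opposed and higher in cKO libraries and 1 lower, and of ribosomal genes 1 was lower. Over all genes 2.52% were opposed and higher and 2.90% lower. Opposed members on the higher side were Atp5g1 and Atp5k, subunits of the ATP synthase (differences 2.74 and 1.21, and 1.17 and 0.55 without the 2 libraries). On the lower side were Cox7c, of cytochrome c oxidase (-1.89, and -3.30 without them), and Rpl6, of the large ribosomal subunit (-2.82, and -1.64 without them). Myelin and oligodendrocyte genes had a median of -0.35 with 5 of 19 positive, and none was opposed. Their median effect was -0.13 after loss and 0.26 after gain. Without the 2 libraries the median difference was -0.19, and the median effects, 0.10 after loss and 0.28 after gain, had the same direction.

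Markers of the choroid plexus, the epithelium beside the hippocampus that secretes cerebrospinal fluid, had the lowest median difference of the 30 lists, -0.97, with 1 of 19 measured members positive (-0.79 with 6 positive without the 2 libraries). Signs were opposite for 7 of the 19, and the median effect was -1.86 after loss and -0.40 after gain, so that most members were lower in both comparisons, by unequal amounts. The summed level of the list was 1175 and 2763 CPM in cKO libraries, against 5821 and 6861 CPM in controls, and 5422 and 3976 CPM in tTA::miR132 libraries, against 6964 and 5736 CPM in controls. Ttr, which encodes transthyretin, had 523 and 1662 CPM in cKO libraries, against 4303 and 4739 CPM in controls, and 4068 and 2789 CPM in tTA::miR132 libraries, against 5124 and 3931 CPM in controls. Enpp2, which encodes autotaxin, was lower in both comparisons, with 478 and 747 CPM in cKO libraries, against 986 and 1338 CPM in controls, and 822 and 715 CPM in tTA::miR132 libraries, against 1210 and 1147 CPM in controls.

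Of the 19 choroid plexus markers 2 were opposed, both lower in cKO libraries, as were 2.90% of all genes. Sostdc1, a secreted antagonist of BMP and Wnt, had 3.48 and 16.4 CPM in cKO libraries, against 31.9 and 50.2 CPM in controls, and 18.8 and 23.2 CPM in tTA::miR132 libraries, against 15.9 and 3.69 CPM in controls. Slc4a5, a bicarbonate transporter, had a difference of -4.86 (SE 3.43), and -4.14 without the 2 libraries. The summed level of choroid plexus markers was lower in both cKO libraries than in their controls, as given above, and its part in the other opposed genes lower in cKO libraries was not tested.

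Summed markers of astrocytes and microglia overlapped between groups. Astrocyte markers summed to 16613 and 16735 CPM in cKO libraries, against 16902 and 15879 CPM in controls, and 16624 and 15780 CPM in tTA::miR132 libraries, against 16225 and 17417 CPM in controls. Microglial markers summed to 909 and 972 CPM in cKO libraries, against 855 and 961 CPM in controls, and 976 and 807 CPM in tTA::miR132 libraries, against 978 and 933 CPM in controls. No gene of either list was opposed. Other summed markers did separate. Dentate granule markers summed to 1085 and 1086 CPM in cKO libraries, against 1112 and 1143 CPM in controls, and 888 and 865 CPM in tTA::miR132 libraries, against 995 and 1247 CPM in controls, lower in both comparisons. Endothelial and pericyte markers summed to 529 and 489 CPM in cKO libraries, against 462 and 396 CPM in controls, and myelin markers to 6265 and 5850 CPM in tTA::miR132 libraries, against 4934 and 5357 CPM in controls. Markers of ependyma and motile cilia summed to 208 and 215 CPM in tTA::miR132 libraries, against 235 and 241 CPM in controls. In cKO libraries that sum overlapped with controls. The part of these sums in the opposed genes was not tested. The lists with the highest medians were ependyma and motile cilia, 0.88 over 7 measured genes, and endothelium and pericytes, 0.69 over 15, and these had the other sign under 4 and 5 of 18 alternatives, limma-voom among them. Genes of the RNA exosome and nonsense-mediated decay had a median of -0.30 with 6 of 17 positive and no opposed member, and GABA receptors one of 0.15 with 9 of 13 positive and none opposed. The opposed markers elsewhere were Esam of endothelium (difference -1.62, SE 1.47), Ogn of fibroblasts (-2.68, SE 1.26), Stxbp6 of granule cells (0.69, SE 0.41), the matrix proteoglycan Bcan (0.45, SE 0.33), the matrix protease Adamts4 (-2.25, SE 3.13) and the corticosteroid-induced factor Zbtb16 (1.35, SE 0.65). Without the 2 libraries the differences were -0.53 for Esam, -1.58 for Ogn, 0.67 for Stxbp6, 0.47 for Bcan, -1.20 for Adamts4 and 0.63 for Zbtb16. The granule cell list that holds Stxbp6 had a median difference of 0.12 over 13 genes, and -0.17 without the 2 libraries. Its median effect was -0.29 after loss and -0.28 after gain, while Stxbp6 was higher after loss. Without the 2 libraries the median effects of the list were -0.0006 after loss and 0.15 after gain.

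**Figure D5:**
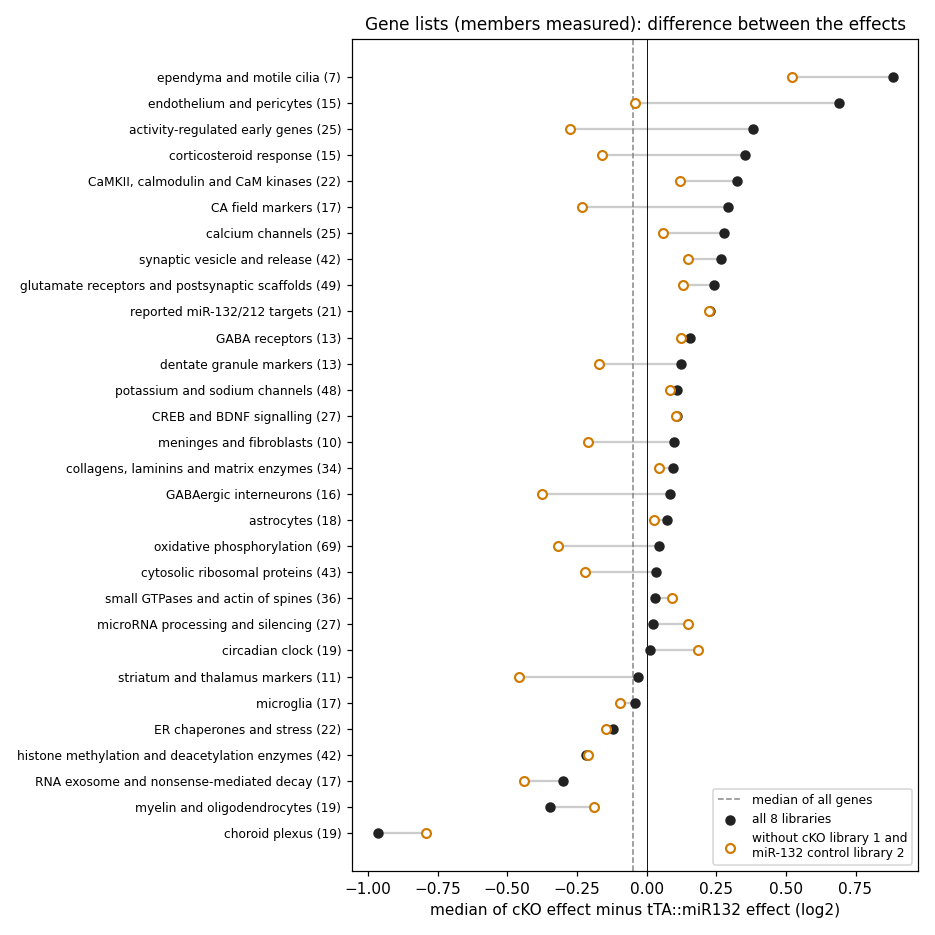
Median difference between the effects (log2) for 30 gene lists, with the number of measured members in brackets, from all 8 libraries (black) and without cKO library 1 and miR-132 control library 2 (open orange); the dashed line is the median of all genes, -0.05. The choroid plexus lies lowest at -0.97, and the synaptic vesicle, CaMKII and glutamate receptor lists lie right of 0 in both. Of the 30 lists 9 change sign, the activity-regulated and CA field lists among them.

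A read-out that the choice of opposed genes did not use came from tTA::miR212 libraries, in which the microRNA with the same seed is gained, set against their own nontransgenic controls (3 libraries each). Of the 252 opposed genes higher in cKO libraries 118 are in that table, and 53 of them (44.9%) lay below 0 there, with a median log2 fold change of 0.02. Of the 290 opposed the other way 88 are in it, and 47 (53.4%) lay above 0, also with a median of 0.02. Over all 4152 shared genes 48.6% lay below 0 and 51.4% above. No gene was called in that comparison by edgeR's quasi-likelihood test (smallest adjusted p 0.42, 237 genes at an unadjusted p under 0.05). Of the named genes, Nrgn was lower after gain of miR-212 by a log2 fold change of -0.33 (unadjusted p 0.000497), and its adjusted p was 0.57. The named opposed genes lay on either side of 0 there. Of 19 that were higher in cKO libraries 11 lay below 0, such as Kalrn at -0.14, Map1lc3a at -0.19 and Fam178a at -0.32, and 8 above, such as Sox5 at 0.33 and Grik4 at 0.13. Of 13 that were lower in cKO libraries 10 lay above 0, such as Hspa5 at 0.11, and 3 below, 1110051M20Rik at -0.09, Fos at -0.08 and Csnk1d at -0.07.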

How the data were processed

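Reads were aligned to mm9 with Bowtie 0.12.7, per the series design text, with counting tool and annotation not stated there. The deposited tables hold raw read counts per RefSeq gene, per the file headers; 14 further columns of values per library were not used. Columns carry a group and a number and were tied to a group only. The 2 tables were joined by symbol, leaving out 1 repeated header line; 9653 of the 9991 genes had the same RefSeq ID in both.

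The 4 groups were fitted jointly in R 4.3.3 with edgeR 4.0.16 (TMM factors, filterByExpr, robust quasi-likelihood fit), adjusting p-values over all genes; CPM used the TMM library sizes. The tables were made separately by the authors, so levels were not compared across them; only effects were. The joint biological coefficient of variation was 62.2%. Intervals from counts cover counting error only. Nothing in the labels says that the numbered libraries of different groups are paired. Replicates are pools, so p-values measure the spread between these pools.

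The members and gene lists were chosen with earlier results of these data known. Named genes were the 12 opposed genes in each direction with the smallest p and a mean of at least 5 CPM, up to 3 opposed members of each list, and a short fixed set; others are marked as named later. Seed windows were checked base by base against the genome (19 of 19 equal). For tTA::miR212, 1 transcript per symbol was kept, by highest mean count. DESeq2 1.42.0, limma 3.58.1 (voom), other scalings and filters and each library left out were alternatives. The fit was tested on simulated data. Some named members are not reported here.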

Additional observations from a re-analysis of the deposited data

How the results depend on the processing

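The count of genes called for the difference between the effects was 0 in the joint fit and 1 with DESeq2 (Fam71f2) and with limma-voom with quality weights (Nrgn). Leaving out one library gave 0 to 1063, the last without cKO library 2, when the cKO group is library 1 alone and is assumed to vary like the other groups; 28 named genes were called there. The effect of the loss alone had 0 calls, 5 with DESeq2, 2 without cKO library 1 and miR-132 control library 2 together (Mrpl15 and Ttr; an alternative chosen after seeing the data), and 0 to 1607 leaving out one library; the effect of the gain had 0 calls and 1 with DESeq2. The 542 opposed genes (252 and 290) became 5032 (2440 and 2592) when opposite signs alone were asked for, 2199 (1127 and 1072) without the 2 libraries together, and 890 to 1523 (402 to 690 and 485 to 833) leaving out one, since fewer libraries have to separate. Genes separated in the same direction numbered 2378 without the 2 libraries together. With the replicate block 0 genes were called and 50.5% had opposite signs; same-numbered libraries were not paired by the labels, and their deviations correlated at 0.028 and 0.018. The median of all genes shifted to -0.18 with limma-voom and -0.19 with the block. Differences of 6 named genes without a call changed sign: without the 2 libraries together Ache was -0.29, Arhgap32 -0.38, Enpp2 0.018 and Ep300 0.074, and leaving out one library Ache ranged over -0.11 to 0.50, Arhgap32 over -0.22 to 0.70, Rasa1 over -0.39 to 0.14 and Sirt1 over -0.80 to 0.19; the cause was not tested. Of the 30 list medians, those of reported targets, synaptic vesicles, CaMKII, glutamate receptors, calcium channels, GABA receptors, myelin, RNA exosome, histone enzymes and choroid plexus kept their sign under 18 alternatives.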
